A study of Homo sapiens with 4 samples.

Results

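The forkhead family is a group of transcription factors that share a winged-helix DNA-binding domain and are named FOX with a letter for the subfamily and a number for the member. Its members were taken as the genes of the expression table whose symbol is FOX, a letter from A to S and a number, which leaves out pseudogenes and antisense RNAs. The rule gave 44 of 58229 genes, and 21 of the 44 reached 1 FPKM in at least 2 libraries and were tested. FPKM, the unit the values were taken to be in, divides the fragments of a gene by transcript length and by library depth, so that levels of different genes can be set side by side, but the counts behind a value are unknown.

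The libraries were made from CD31+ cells collected at day 8 of stepwise hematopoietic differentiation of the human embryonic stem cell line H1. Both groups went through activinA and BMP4 and then VEGF and bFGF in a custom mTeSR1 medium, and differed in whether HAND1, a basic helix-loop-helix transcription factor, was overexpressed in H1 (HAND1_OE, 2 libraries) or not (Control, 2 libraries). The study expressed HAND1 before hemogenic endothelial progenitors (HEPs) give rise to hematopoietic progenitor cells (HPCs). The vector, the number of clones and whether the libraries of a group came from separate cultures are not given in the sources used here, so the p-values measure the spread between these libraries, which may be technical.

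Forkhead factors have well-known roles in the vasculature. FOXC1 and FOXC2 act in arterial specification and, with ETS factors, at enhancers of endothelial genes. FOXF1 is needed in mesoderm and in the vessels of the yolk sac and lung, and FOXO1 restrains growth of endothelial cells and leaves the nucleus when AKT phosphorylates it. FOXD1 marks the stroma of the developing kidney and FOXS1 is found in pericytes and neural crest derivatives, while FOXH1 carries nodal and activin signals to mesendoderm genes together with SMAD proteins.

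HAND1 itself was listed at 12.1 and 14.3 FPKM without overexpression and at 520 and 517 with it (log2 fold change 5.20, standard error 0.152, limma adjusted p = 0.00145). FPKM summed to 536284 to 606609 per library, 13989 to 14542 genes reached 1 FPKM, and the depth of the other 3 libraries relative to Control replicate 1, read from the steps of low values, was 0.98 to 1.19. PECAM1, which encodes the sort marker CD31, was at 95.5 and 141 FPKM in Control, against 92.0 and 160 in HAND1_OE. CDH5, another endothelial gene, was at 222 to 280 in the 4 libraries. Of 10 endothelial markers tested, VWF was called higher and CLDN5 lower (log2 fold changes 2.18 and -2.27). Blood markers moved with the groups, and so did part of the stroma markers. Of the markers tested, 11 of 12 erythroid, 7 of 8 megakaryocyte, 5 of 6 myeloid and 6 of 8 pan-hematopoietic genes were lower in HAND1_OE, with summed erythroid FPKM of 889 and 1283 in Control and 70.3 and 57.0 in HAND1_OE. Stroma and pericyte markers were higher in 3 of 12 (PDGFRB, LUM and POSTN), with a summed FPKM of 702 and 614 in Control and 813 and 783 in HAND1_OE. The median log2 fold change of the 12 was 1.13. Some markers met the filter through Control alone, such as HBG1, GP9, PF4, LYZ and CD53, and POSTN met it through HAND1_OE alone. Such markers could be counted in that direction only. In bulk RNA, fewer cells of a type and less RNA per cell cannot be told apart, and whether these shifts take part in the forkhead values was not tested.

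**Figure D1:**
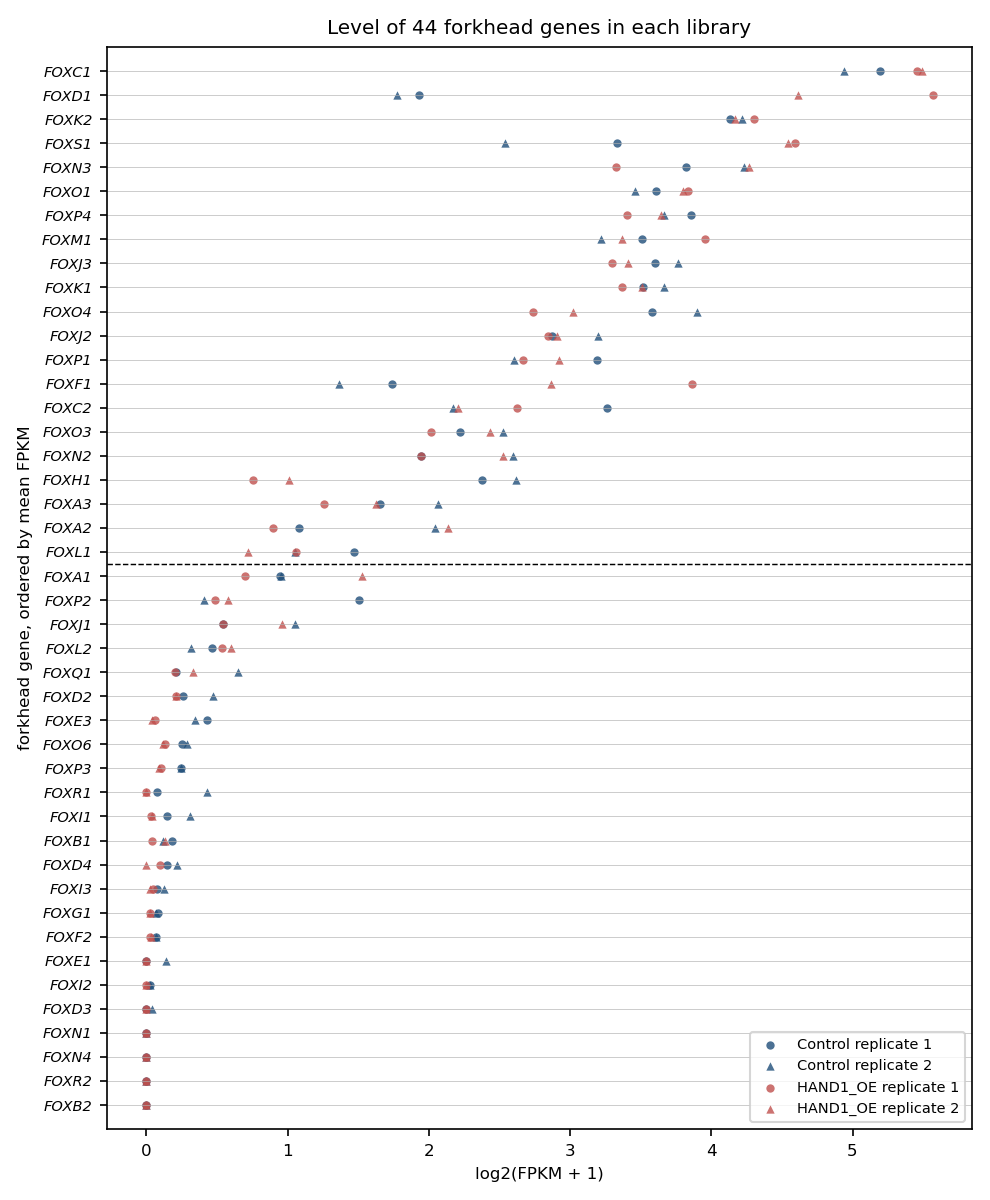
Level of each of the 44 forkhead genes in each library on a log2(FPKM + 1) axis, ordered by the mean FPKM of the 4 libraries, with circles for replicate 1, triangles for replicate 2, blue for Control and red for HAND1_OE; the dashed line parts the 21 genes tested from the 23 not tested. FOXC1 had the highest mean in both groups, although FOXD1 was the higher in HAND1_OE replicate 1, and FOXD1 lay at 2.81 and 2.42 FPKM in Control and 46.4 and 23.5 in HAND1_OE.

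Of the 21 forkhead genes tested, FOXD1 and FOXS1 rose and FOXH1 fell in HAND1_OE. These 3 calls were 14.3% of the members tested, and 4.16% of all 14622 genes tested were called, 2.04% higher (299 genes) and 2.11% lower (309 genes). With the trend of each library on transcript length and GC content removed, the split over all genes was 414 higher and 282 lower, and the calls among the forkhead genes were FOXD1, FOXS1 and FOXH1 as well. The groups did not overlap for 11 of the 21 members, 5 higher and 6 lower, beside 46.3% of all genes tested. Over the 21 members the log2 fold changes had a median of -0.15, and over all genes tested of -0.08, and 16 of the 21 changed by under 0.5 in either direction.

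**Figure D2:**
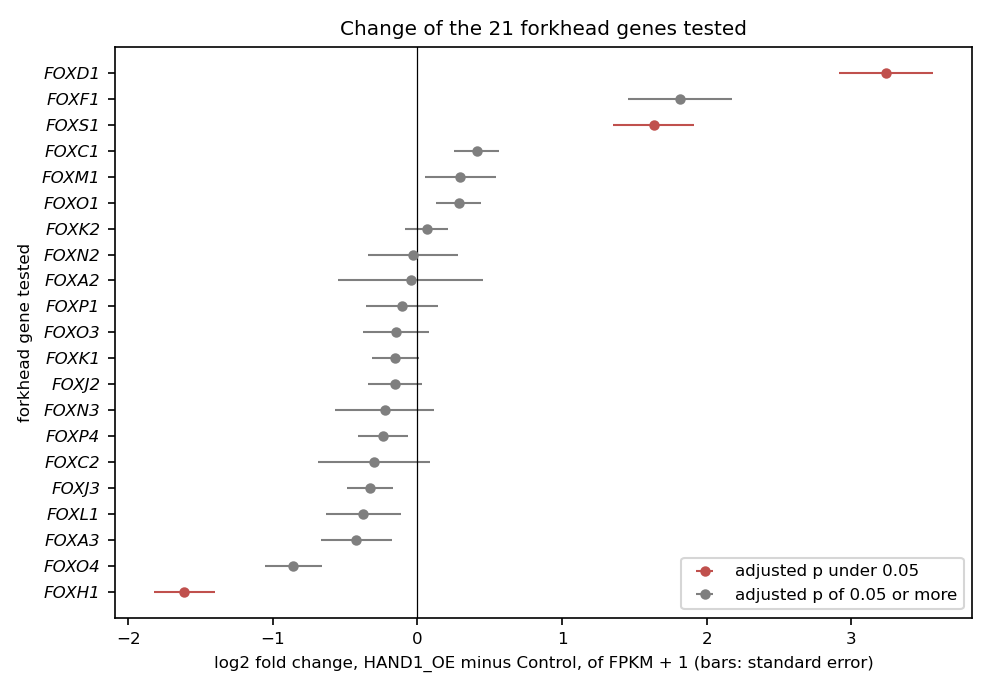
Log2 fold change of FPKM + 1 between HAND1_OE and Control for the 21 forkhead genes tested, with the standard error as bars and genes with a limma adjusted p under 0.05 in red. FOXD1 (3.24) and FOXS1 (1.63) lay to the right and FOXH1 (-1.61) to the left, while FOXF1 (1.82) and FOXO4 (-0.86) did not pass the threshold.

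FOXD1 had the largest change of the family and the 15th highest of all genes tested. The gene lies on the minus strand of GRCh38 (ENSG00000251493.4, chr5:73444827-73448527). Its promoter is shown because FOXD1 changed most in the family and because basic helix-loop-helix factors such as HAND1 bind, as dimers, to the E-box, CANNTG. The line below gives the 250 bases before the RefSeq start of the gene, read on its own strand (minus strand, GRCh38.p14, chr5:73448778-73449027, from RefSeq), with the E-boxes in capitals.
FOXD1: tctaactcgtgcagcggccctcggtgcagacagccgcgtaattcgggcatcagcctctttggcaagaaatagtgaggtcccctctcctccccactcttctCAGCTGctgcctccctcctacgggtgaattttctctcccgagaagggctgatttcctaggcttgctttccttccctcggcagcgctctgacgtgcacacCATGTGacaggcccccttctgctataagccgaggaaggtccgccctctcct
The 2 E-boxes start 150 and 51 bases before the RefSeq start, which lies 250 bases outside the gene as the expression table has it. CANNTG reads the same on both strands and was present in 61.8% of the 35116 windows of this length in the RefSeq table, and in 20 of the 33 forkhead genes with a window (60.6%). Among the 13 tested members with a window, 6 held it. A match of these letters is a description of the sequence and by itself no evidence that HAND1 was bound there. The study reports higher FN1, FOXD1 and GATA4 under HAND1 overexpression. It cites in part a box plot of mesenchymal genes in CD31+ cells, so that report may not be independent of these libraries. It also reports direct HAND1 binding at their promoters. Whether the bound stretch holds these E-boxes was not examined here.

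FOXD1 stood at 2.81 FPKM in Control replicate 1 and 2.42 in Control replicate 2, against 46.4 in HAND1_OE replicate 1 and 23.5 in HAND1_OE replicate 2. Both HAND1_OE libraries lay far above both Control libraries, but they differed from each other by more FPKM than the lower of them differed from either Control library. The mean went from 2.61 ± 0.278 to 35.0 ± 16.2 FPKM (SD, n = 2), a ratio of means of 13.4 (log2 fold change of FPKM + 1 of 3.24, standard error 0.325, 95% interval 2.43 to 4.05, limma adjusted p = 0.0104). In Control, FOXD1 was 18th among the 44 forkhead genes by mean FPKM, and in HAND1_OE it was the second after FOXC1 by the same mean. Its share of the summed FPKM of the family was 1.47% and 1.30% in Control and 19.0% and 10.2% in HAND1_OE, while that sum was 190.9 and 186.4 FPKM in Control and 244.4 and 229.7 in HAND1_OE. A noncoding gene on the opposite strand, FOXD1-AS1, lies inside FOXD1 over 628 bases. It had values of 1.77 and 1.03e-05 FPKM in Control and 0.00109 and 4.11 in HAND1_OE. The library kit does not mark strand, so reads of the overlapping bases could have been given to either gene, and FOXD1-AS1 did not separate the groups.

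The other FOXD genes were low. FOXD2, FOXD3 and FOXD4 were under the filter, and FOXD4, which has near-identical copies in the genome that can share its reads, is uncertain. FOXD1 was thus the FOXD gene for which a test was made.

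FOXS1 is a single-exon gene (ENSG00000179772.7, chr20:31844301-31845619, minus strand). It was at 9.10 and 4.80 FPKM in Control, against 23.2 and 22.3 in HAND1_OE. The HAND1_OE libraries were close to each other and above both Control libraries, which differed from each other by more. The mean went from 6.95 ± 3.04 to 22.7 ± 0.619 FPKM (SD, n = 2), a ratio of means of 3.27 (log2 fold change of FPKM + 1 of 1.63, standard error 0.280, 95% interval 0.935 to 2.33, limma adjusted p = 0.0413). FOXS1 moved from the 11th to the third place among the forkhead genes by mean FPKM, and its change was the 145th highest of all genes tested. The call was not reached without Control replicate 2 (limma adjusted p = 0.0716). DUSP15, which lies 2017 bases away on the same strand, was at 6.50 and 4.04 FPKM in Control and 6.10 and 3.42 in HAND1_OE, so the neighbour did not separate the groups. FOXS1 and FOXD1 are both known from stromal cells. A CD31+ sort is meant to leave these cells out, but its purity was not measured here. Of the stroma and pericyte markers, the receptor PDGFRB was at 7.92 and 5.09 FPKM in Control and 32.6 and 25.9 in HAND1_OE, while RGS5 was at 193 and 183 in Control and 143 and 174 in HAND1_OE and ACTA2 at 72.2 to 84.3 in the 4 libraries. COL1A2, COL1A1 and RGS5 were the tested markers of this list with a negative log2 fold change (-0.82, -0.23 and -0.25), and none was called. CSPG4 (2.36), PDGFRA (1.20) and COL3A1 (1.16) were among those with a positive change and were not called either. The median over the 12 markers tested was 1.13. The part of stromal cells in the values of FOXS1 and FOXD1 was not tested.

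**Figure D3:**
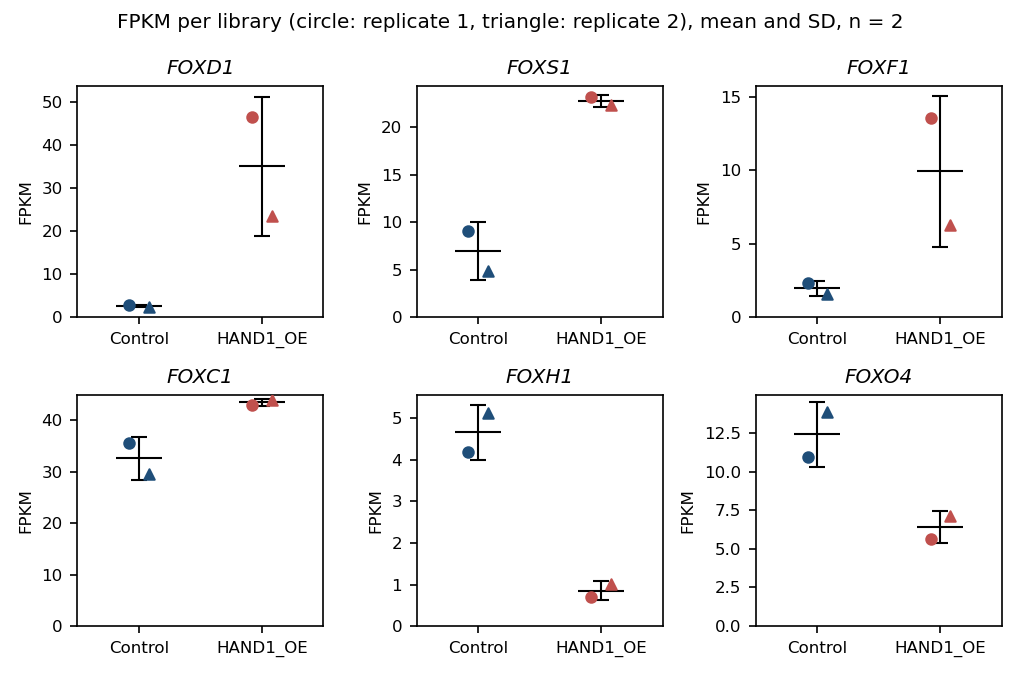
FPKM of FOXD1, FOXS1, FOXF1, FOXC1, FOXH1 and FOXO4 in each library (circle for replicate 1, triangle for replicate 2, blue for Control, red for HAND1_OE), with the mean as a horizontal line and the SD as bars (n = 2) on axes that start at 0. The groups do not overlap in any of the 6 panels, and the HAND1_OE libraries of FOXD1 (46.4 and 23.5) and FOXF1 (13.6 and 6.29) lie far apart.

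FOXF1, a mesoderm and vessel factor that acts downstream of hedgehog signals, had the second largest positive change but did not pass the threshold. FOXF1 (chr16:86510527-86515418) was at 2.33 and 1.57 FPKM in Control, against 13.6 and 6.29 in HAND1_OE. As with FOXD1, HAND1_OE replicate 1 was the higher of its group by more than the spread in Control. The means were 1.95 ± 0.535 and 9.93 ± 5.14 FPKM (SD, n = 2), with a ratio of 5.09 (log2 fold change of FPKM + 1 of 1.82, standard error 0.359, 95% interval 0.923 to 2.71, limma adjusted p = 0.0592). FOXF1 passed the threshold where each of the 4 libraries had to reach 1 FPKM (limma adjusted p = 0.0425) and without HAND1_OE replicate 2 (limma adjusted p = 0.00522). FENDRR, a long noncoding RNA gene 1427 bases from FOXF1 on the opposite strand, was at 0.148 and 0.0493 FPKM in Control and 0.847 and 0.359 in HAND1_OE, under the filter and not tested. The order of the 4 FENDRR values was that of the FOXF1 values.

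The other FOXF gene was near 0. FOXF2 was at 0.0474 and 0.0485 FPKM in Control and 0.0201 and 0.0230 in HAND1_OE, and was not tested. The hedgehog list, which holds ligands, the transducer SMO and the GLI factors among others, had 11 of 14 genes tested, and limma called none of them higher or lower, with changes of -0.46 (SMO) to 0.55 (CDON) and a median of 0.14. SMO was at 23.4 and 19.5 FPKM in Control and 16.3 and 14.3 in HAND1_OE (limma adjusted p = 0.243), and SUFU, an inhibitor of the GLI factors, was at 16.3, 12.3, 15.9 and 13.7 in the same order of libraries.

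FOXC1 was the most abundant forkhead gene by the mean of each group, though FOXD1 (46.4 FPKM) lay above it (43.0) in HAND1_OE replicate 1. FOXC1 (chr6:1609972-1613897) was at 35.6 and 29.6 FPKM in Control, against 43.0 and 43.9 in HAND1_OE. The groups did not overlap, but the difference did not pass the threshold. The means were 32.6 ± 4.20 and 43.5 ± 0.660 FPKM (SD, n = 2), and the log2 fold change was 0.41 (standard error 0.156, 95% interval 0.0212 to 0.798, limma adjusted p = 0.262). FOXC1 held 15.9% to 19.1% of the summed FPKM of the family in the 4 libraries.

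FOXC2, its close relative, acts in lymphatic and venous valves and in arterial specification. FOXC2 (chr16:86567251-86569728) was at 8.58 and 3.49 FPKM in Control and 5.17 and 3.60 in HAND1_OE, so that both HAND1_OE libraries lay between the Control libraries (log2 fold change -0.30, standard error 0.386, 95% interval -1.26 to 0.660, limma adjusted p = 0.782). The antisense gene FOXC2-AS1, which overlaps it, was listed at 0 in every library. The summed FPKM of the FOXC subfamily was 44.2 and 33.1 in Control and 48.2 and 47.6 in HAND1_OE.

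Genes that FOXC factors are linked to in endothelium were described next to them. Of 12 such genes, which include Notch genes, CXCR4 and its ligand, the growth factor VEGFC, the transcription factors TBX1 and PROX1 and the integrin ITGB3, none was called higher and 2 were called lower in limma, with a median of -0.31. HEY2, an arterial Notch target, was at 36.5 and 31.9 FPKM in Control and 12.7 and 16.3 in HAND1_OE (log2 fold change -1.19, limma adjusted p = 0.0311). ITGB3, an integrin that is also a platelet and megakaryocyte marker, was at 10.4 and 17.8 FPKM in Control, against 0.803 and 0.695 in HAND1_OE (-3.07, limma adjusted p = 0.00851), and the megakaryocyte list it belongs to fell with it. ITGB3 met the filter through the Control libraries alone. The ligand DLL4 was at 229 and 227 FPKM in Control and 133 and 185 in HAND1_OE, with a limma adjusted p = 0.25. Among 12 endothelial genes with FOX:ETS enhancers, limma called none, and the median was -0.16. KDR, a VEGF receptor, was at 251 to 272 FPKM in the 4 libraries, and TIE1 at 311 and 278 in Control and 219 and 251 in HAND1_OE. NOTCH4, which stands in both lists, had a log2 fold change of -1.23 and a limma adjusted p = 0.0545.

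Several of these genes lie side by side in the genome, and whether neighbours change together was not tested. On chromosome 16, FOXF1, FOXC2 and FOXL1 lie within 71.6 kb. Their log2 fold changes were 1.82, -0.30 and -0.37, and none of them was called. FOXL1, a factor of gut and liver mesenchyme, was at 1.77 and 1.08 FPKM in Control and 1.08 and 0.647 in HAND1_OE, with a limma adjusted p = 0.553. On chromosome 6, FOXQ1, FOXF2 and FOXC1 lie within 301 kb, and of these FOXC1 alone reached 1 FPKM. FOXQ1 was at 0.156 and 0.570 FPKM in Control, against 0.151 and 0.259 in HAND1_OE. Of the 44 genes, 12 have a single exon, of which 3 were tested (FOXC1, FOXC2 and FOXS1), and the median GC content of the members' transcripts was 58.2%, beside 48.7% for all genes tested.

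FOXH1 was the member called lower. FOXH1 (ENSG00000160973.7) was at 4.19 and 5.13 FPKM in Control and 0.688 and 1.02 in HAND1_OE. All Control values were several times the HAND1_OE values, and the spread within each group was small. The mean went from 4.66 ± 0.667 to 0.853 ± 0.233 FPKM (SD, n = 2), a ratio of 0.183 (log2 fold change of FPKM + 1 of -1.61, standard error 0.212, 95% interval -2.14 to -1.08, limma adjusted p = 0.0219), the 160th lowest of all genes tested. FOXH1 met the filter through both Control libraries and stayed at or under about 1 FPKM in HAND1_OE, and it was not tested where every library had to reach 1 FPKM. The call was not reached without Control replicate 2 (limma adjusted p = 0.0771). It overlaps KIFC2 on the opposite strand over 791 bases. KIFC2 was at 16.6 and 16.2 FPKM in Control and 17.7 and 11.8 in HAND1_OE, and did not separate the groups.

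The genes of the nodal and activin pathway, which FOXH1 serves, did not move one way. Of 18 genes, 12 were tested, of which limma called 1 higher and 2 lower, with a median of -0.11. GDF3, a ligand that acts with nodal, was at 8.20 and 6.45 FPKM in Control, against 1.19 and 1.06 in HAND1_OE (log2 fold change -1.96, limma adjusted p = 0.0104). MIXL1, a mesendoderm factor and known FOXH1 target, was at 5.63 and 3.89 FPKM in Control and 0.813 and 1.27 in HAND1_OE (-1.49, limma adjusted p = 0.0369). SMAD3, a signal transducer, was at 5.40 and 6.68 FPKM in Control and 13.0 and 13.7 in HAND1_OE (1.03, limma adjusted p = 0.0379). The ligand and the target were low in HAND1_OE, while SMAD3 was higher. Goosecoid (GSC) was listed at 0 in every library. The pluripotent markers, some of which nodal signals maintain, had a summed FPKM of 75.3 and 89.9 in Control and 54.7 and 70.0 in HAND1_OE, and limma called none of the 4 tested.

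**Figure D4:**
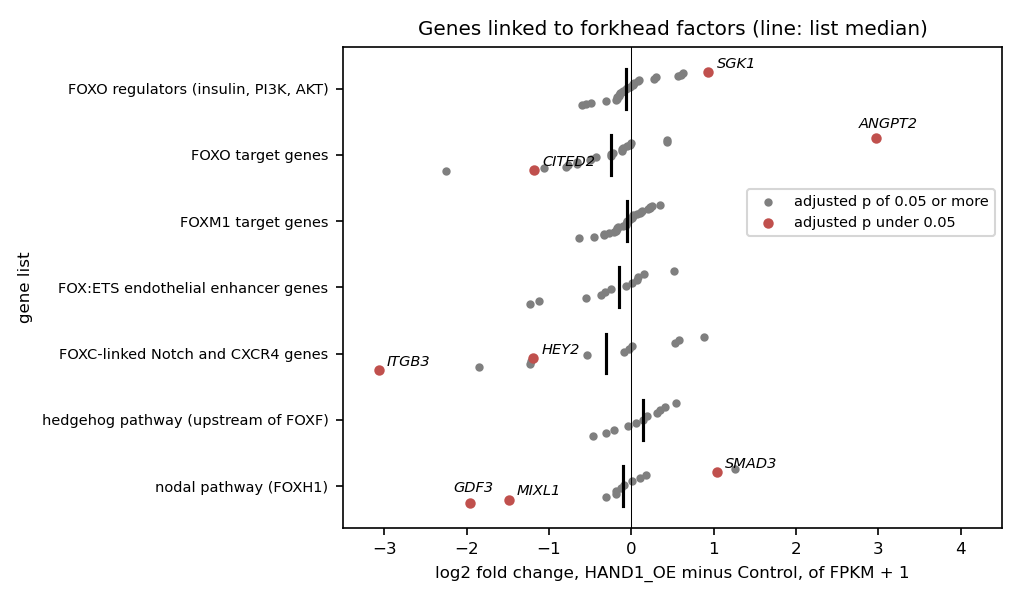
Log2 fold change of FPKM + 1 between HAND1_OE and Control for the genes of 7 lists linked to forkhead factors, each point a gene tested, with genes with a limma adjusted p under 0.05 in red and named, and the median of each list as a black line. The medians lie between -0.31 (FOXC-linked genes) and 0.14 (hedgehog pathway), and ANGPT2 (2.96) and ITGB3 (-3.07) are the points farthest from 0. Over all genes tested the median was -0.08, and 4.16% were called.

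None of the FOXO genes passed the threshold. FOXO1 (chr13:40469953-40666597), the main endothelial FOXO, was at 11.2 and 10.0 FPKM in Control, against 13.3 and 12.9 in HAND1_OE (log2 fold change 0.28, standard error 0.153, 95% interval -0.0969 to 0.666, limma adjusted p = 0.437). FOXO4 (chrX:71096197-71103535) was at 10.9 and 13.9 FPKM in Control and 5.66 and 7.12 in HAND1_OE. FOXO4 thus lay lower in both HAND1_OE libraries, with means of 12.4 ± 2.09 and 6.39 ± 1.03 FPKM (SD, n = 2) and a ratio of 0.515 (log2 fold change -0.86, standard error 0.198, 95% interval -1.35 to -0.365, limma adjusted p = 0.0881). FOXO3 (chr6:108559835-108684774), known for its part in the quiescence of hematopoietic stem cells, was at 3.67 and 4.75 FPKM in Control and 3.04 and 4.40 in HAND1_OE, with overlapping groups (log2 fold change -0.15, standard error 0.229, 95% interval -0.719 to 0.420, limma adjusted p = 0.825). FOXO6, a mainly neural member, was at 0.192 and 0.218 FPKM in Control, against 0.0959 and 0.0827 in HAND1_OE and was not tested. The summed FPKM of the subfamily was 26.0 and 28.9 in Control and 22.1 and 24.5 in HAND1_OE.

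FOXO proteins are controlled mainly by phosphorylation, which RNA does not measure. Of 26 regulators in the insulin, PI3K and AKT pathway, all were tested and limma called 1 higher and none lower, with a median of -0.06. SGK1, a kinase that phosphorylates FOXO proteins at sites like those of AKT, was at 20.4 and 22.7 FPKM in Control and 43.8 and 40.1 in HAND1_OE (log2 fold change 0.93, limma adjusted p = 0.0347). The adaptor genes YWHAE and YWHAZ, whose 14-3-3 proteins hold phosphorylated FOXO in the cytoplasm, were the most abundant of the regulators not called, with log2 fold changes of 0.03 and 0.30.

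Of 29 known FOXO target genes, 22 were tested, of which limma called 1 higher and 1 lower, with a median of -0.25. ANGPT2, which encodes a TEK ligand that destabilises vessels and is a FOXO1 target in endothelium, was at 5.92 and 6.63 FPKM in Control and 59.3 and 52.4 in HAND1_OE (log2 fold change 2.96, standard error 0.156, limma adjusted p = 0.00379). CITED2, a transcriptional co-regulator, was at 92.5 and 126 FPKM in Control, against 46.7 and 47.0 in HAND1_OE (-1.19, limma adjusted p = 0.0347). The called targets thus moved in opposite directions. CDKN1A, a cell cycle inhibitor, and TXNIP, an inhibitor of thioredoxin, were the most abundant targets not called, with log2 fold changes of 0.44 and -1.07. FASLG and G6PC were listed at 0 in every library.

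FOXM1, which drives genes of the G2 and M phases, was at 10.4 and 8.31 FPKM in Control and 14.5 and 9.30 in HAND1_OE, with overlapping groups (log2 fold change 0.30, limma adjusted p = 0.636). All 29 of its known targets were tested and limma called none, with changes of -0.64 (HMMR) to 0.34 (MKI67) and a median of -0.05. CKS1B was at 61.3 and 57.3 FPKM in Control and 59.3 and 44.2 in HAND1_OE, and UBE2C at 48.4 and 33.9 in Control and 49.0 and 34.5 in HAND1_OE.

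The broadly expressed members held much of the rest of the family. FOXK1 and FOXK2 repress autophagy genes and act in glucose metabolism. FOXK2 was at 16.5 to 18.8 FPKM in the 4 libraries, with a log2 fold change of 0.06, and FOXK1 at 9.30 to 11.7 with -0.15. In the FOXJ subfamily, FOXJ3 was at 11.1 and 12.6 FPKM in Control, against 8.83 and 9.64 in HAND1_OE (-0.33, limma adjusted p = 0.386), and FOXJ2 had a log2 fold change of -0.16. In the FOXN subfamily, the checkpoint factor FOXN3 was at 13.1 and 17.8 FPKM in Control and 9.03 and 18.3 in HAND1_OE (-0.23), and FOXN2 had a log2 fold change of -0.03. The replicates of FOXN3 differed by more than the groups did. FOXP1 and FOXP4, repressors that act as dimers, had log2 fold changes of -0.10 and -0.24, with FOXP4 at 13.5 and 11.7 FPKM in Control and 9.59 and 11.5 in HAND1_OE. None of these members had a limma adjusted p under 0.386.

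The FOXA genes, pioneer factors of endoderm and liver, were low and varied between replicates. FOXA2 was at 1.12 and 3.13 FPKM in Control, against 0.866 and 3.39 in HAND1_OE, so that replicate 2 was the higher in both groups (log2 fold change -0.05, limma adjusted p = 0.980). FOXA3 was at 2.15 and 3.19 FPKM in Control and 1.39 and 2.08 in HAND1_OE (-0.42, limma adjusted p = 0.482). FOXA1 was at 0.929 and 0.933 FPKM in Control and 0.623 and 1.88 in HAND1_OE and was not tested. The summed FPKM of 10 definitive endoderm and liver markers was 401 and 623 in Control and 377 and 1156 in HAND1_OE, so replicate 2 was the higher in both groups there as well, and its part in the FOXA values was not tested.

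The 23 members under the filter reached at most 1.88 FPKM, the FOXA1 value above, and 18 of them were under 0.5 FPKM in every library. The next highest were FOXP2, at 1.84 and 0.326 FPKM in Control, against 0.399 and 0.490 in HAND1_OE, and FOXJ1, the factor of motile cilia, at 0.459 and 1.08 in Control and 0.454 and 0.945 in HAND1_OE. Of 13 motile cilium genes 2 were tested and limma called none. FOXP3, which defines regulatory T cells, was at 0.186 FPKM in each Control library and at 0.0767 and 0.0659 in HAND1_OE, and FOXE3, a lens factor, was at 0.346 and 0.272 in Control and 0.0450 and 0.0258 in HAND1_OE. FOXN1, FOXN4, FOXR2 and FOXB2 were listed at 0 in every library, which does not show that they were silent. Of the 19 others, 11 were lower in both HAND1_OE libraries than in both Control libraries (57.9%) and 1, FOXL2, was higher (5.26%). Among all 15238 genes above 0 but under the filter these shares were 19.6% and 11.1%. That set takes in genes above 0 in any library and was not matched to the members in level, length or GC content. Values this low can rest on few fragments, whose number FPKM does not hold, and the shares are given as a description.

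**Figure D5:**
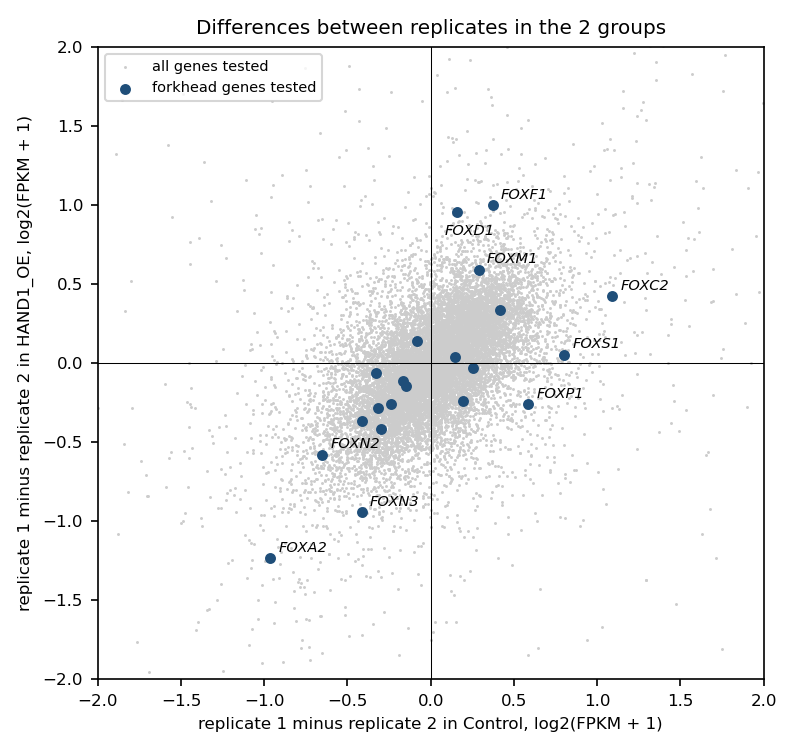
Difference between replicate 1 and replicate 2 in HAND1_OE against the same difference in Control, both in log2(FPKM + 1), for the 21 forkhead genes tested (blue, with 9 named) and all genes tested (grey), of which 104 lie outside the axes. Of the 21 forkhead genes 17 lie in the quadrants where the replicates differ in the same direction in both groups, with FOXA2 (-0.96 in Control and -1.24 in HAND1_OE) at the lower left.

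The way the replicates differed within a group was shared between the groups for most members, as for most genes tested. For 17 of the 21 forkhead genes tested (81.0%), the replicate with the higher value had the same number in Control and in HAND1_OE, beside 70.1% of all genes tested. Where the replicates differed by over 0.25 in log2(FPKM + 1) in both groups, this held for 10 of 11 members and 86.2% of all such genes. Replicate 2 was the higher for 10 of the 17 forkhead genes, among them FOXA2, FOXN2 and FOXN3, and replicate 1 for 7, among them FOXD1, FOXF1, FOXS1, FOXC2 and FOXM1. Pearson's r of the replicate differences was 0.676 across the 21 genes and 0.383 across all genes tested, given as a description, since genes of the same 4 libraries are not independent. Nothing in the labels says that a replicate number marks a shared culture or day.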

How the data were processed

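RNA was sequenced from CD31+ cells at day 8 in 2 Control and 2 HAND1_OE libraries, grouped by sample title. The authors deposited a table of 1 value per gene and library whose header names no unit. The deposited values were taken as FPKM, as in the study's own plots of these libraries. Per the labels' processing notes BWA, Bowtie and RSEM were used, with no versions or order given, and the build was hg19. However, 99.96% of the 55605 genes with the same versioned ID have the coordinates of GENCODE release 29 on GRCh38, so coordinates are given as GRCh38, with starts counted from 1. How values were scaled between libraries is not given in the sources used here. Since FPKM holds no counts, no counting interval could be given, and 0 can be a failed estimate.

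From 58365 rows, 45 for Y copies of pseudoautosomal genes and 91 repeats of a gene ID were dropped. The 14622 genes that reached 1 FPKM in 2 or more libraries were compared as log2(FPKM + 1) with limma 3.58.1 under R 4.3.3, two-sided and with a trend of variance on level, with Benjamini-Hochberg adjustment over all genes tested and a threshold of 0.05. Adjusted p-values are from this test unless an alternative is named beside them. Fold changes on this scale understate the change of low genes. An exact permutation test of 2 against 2 libraries cannot reach 0.05. The code was tested on simulated data. The members and gene lists were chosen with earlier results of these data known, so no list was tested as a set. Lists are described by counts and medians. Over all genes tested, 4.16% were called, 2.04% higher and 2.11% lower, and the median log2 fold change was -0.08. The members called by limma, FOXD1 and the FOXC, FOXF and FOXO genes are given in full, and from each list up to 3 called genes with the largest changes, or up to 2 uncalled genes with the highest levels where under 2 were called; markers and genes named besides these, such as neighbours of members or the ends of a list's range, were chosen after their values were seen.

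Alternatives were a pseudocount of 0.1, every gene above 0, a minimum of 1 FPKM in all 4 libraries, scaling by median ratios, quantile normalization, a fit with no trend, a block on the replicate number and each library left out. A correction of each library for length and GC of the transcripts, alone or together with the block, was added after seeing the data.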

Additional observations from a re-analysis of the deposited data

How the results depend on the processing

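With the replicate number as a block, limma called 597 genes higher and 712 lower over all genes, and among forkhead genes FOXD1, FOXS1 and FOXF1 (adjusted p = 0.0223) higher and 2 lower, FOXH1 and FOXO4 (adjusted p = 0.0275). Same-numbered libraries deviated together (Pearson's r = 0.383 across 14622 genes), but there were only 2 pairs and the labels tie the numbers to no culture or day. The block with the length and GC trends removed gave 952 higher and 762 lower, with 2 forkhead genes lower and FOXF1 and FOXO4 again called (adjusted p = 0.0114 and 0.0210). Testing every gene above 0 (29860, with 40 forkhead genes), limma called 0 higher and 0 lower, forkhead genes included, while 1458 and 2352 genes had an unadjusted p under 0.05 in each direction, 4 and 5 of them forkhead. HAND1 kept its fold change of 5.20 there with an adjusted p = 0.153, and FOXD1, FOXH1 and FOXS1 had 0.167, 0.174 and 0.242. With 1 FPKM required in every library, 0 forkhead genes were called lower, since FOXH1 was not tested.

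Leaving out each library in turn gave 134 to 266 genes higher and 137 to 309 lower, the lowest counts without Control replicate 2 (134 and 137) and without Control replicate 1 (141 and 144), and 1 to 3 forkhead genes higher and 0 to 1 lower. Without Control replicate 2, FOXD1 alone was called among forkhead genes. The lone library of a group is then assumed to vary like the other group. FOXD1 was called in every alternative but the test of every gene above 0.

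Fold changes near 0 turned sign. FOXN2 (-0.03) was at 0.0837 with quantile normalization, 0.0402 with median-ratio scaling and 0.0309 with the length and GC trends removed, with or without the block, and FOXA2 (-0.05) at 0.0719, 0.00836 and 0.0623. With a library left out the ranges that crossed 0 were -0.36 to 0.29 for FOXN2, -0.67 to 0.57 for FOXA2, -0.32 to 0.0071 for FOXJ2, -0.85 to 0.25 for FOXC2, -0.70 to 0.24 for FOXN3, -0.36 to 0.061 for FOXO3, -0.0068 to 0.13 for FOXK2 and -0.40 to 0.19 for FOXP1. The cause was not tested. Of 270 values of single genes under alternatives, 239 kept direction and side of the threshold, 20 turned sign, and 6 passed and 5 lost the threshold. Low members rest on an unknown number of fragments, so those under the filter were kept out of the reported test.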

Other observations

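The neighbouring noncoding RNA genes of the forkhead family were mostly at or near 0. Of 16 on the list, 12 were in the table under these names, 5 of them were listed at 0 in every library and 2 were tested. FOXD2-AS1 was at 1.05 and 1.68 FPKM in Control, against 1.32 and 1.12 in HAND1_OE, with overlapping groups (log2 fold change -0.08). FOXCUT, which lies 3892 bases before FOXC1 on the same strand, was at 0.826 and 0 FPKM in Control and 1.22 and 0.868 in HAND1_OE. LINC02315, whose place beside a forkhead gene was not checked here, was at 0.222 and 0.221 FPKM in Control and 0.732 and 0.542 in HAND1_OE, under the filter.

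Of 5 cardiac muscle markers tested limma called 1 lower (MYL4), of 2 neural markers 1 higher (NES), of 7 endoderm and liver markers 1 lower (HHEX) and of 9 epithelial markers none. Of 10 endothelial markers 1 was called higher (VWF) and 1 lower (CLDN5), with summed FPKM of 1506 and 1320 in Control and 1386 and 1513 in HAND1_OE.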
